A study of Mus musculus with 2 samples.

Results

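The miRNAs described here are those of the miR-297, miR-466, miR-467 and miR-669 families of the mouse. Every miRNA on the array with one of these 4 numbers in its name was taken, followed by a letter, a strand suffix or nothing, which gave 41 of the 696 mouse miRNAs measured. There were 14 members of miR-466, 14 of miR-669, 10 of miR-467 and 3 of miR-297. They were measured in untreated ICR mouse embryos at E13.5, in 2 regions. One is the 3rd mammary gland, called the gland here, and the other is the inter mammary gland region, called the flank here, which lies between the 3rd gland and the 4th. For each region 1 Agilent 1-colour miRNA array was hybridized with 100 ng of Cy3-labelled total RNA. A design of 1 array per region gives no replicate check, so the differences are descriptions of these arrays and carry no test. The number of embryos or litters behind each RNA sample is not given in the sources used here. The comparison asks which miRNAs differ between the gland, where the epithelial bud lies, and the flank beside it.

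A miRNA is a short RNA that guides an Argonaute protein to messenger RNAs and lowers their stability and translation, mainly by pairing of its seed (bases 2 to 8) with the target. Either strand of a miRNA hairpin can be kept, and names ending in -5p, -3p or a star tell the strands apart. Most genes of these 4 families lie as tandem copies in an intron of Sfmbt2, a Polycomb group gene that is imprinted and expressed from the paternal copy in extraembryonic tissue. The families are specific to rodents, rich in UG and CA repeats, and known for their expression in the placenta and in embryonic stem cells. Some members have been studied elsewhere, such as miR-669a in muscle progenitors, miR-467b in the regulation of lipoprotein lipase and miR-466l in the stability of interleukin 10 transcripts in macrophages.

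The repeat character can be seen in the 5 members whose mature sequence was held under the same name by the RefSeq miRNA table (build GRCm38.p6). Capitals mark the seed. The first 2 sequences belong to members that were detected in both regions and the other 3 to members that were not.
miR-467f: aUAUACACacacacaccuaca
miR-669n: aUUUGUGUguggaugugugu
miR-466j: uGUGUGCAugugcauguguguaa
miR-466k: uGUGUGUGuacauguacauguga
miR-467g: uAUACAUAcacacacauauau

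In this build miR-467f lies at chr11:69635419-69635439 on the minus strand inside Fxr2, miR-669n at chr3:115979905-115979924 on the plus strand inside Slc30a7, and miR-467g at chr5:34732872-34732892 on the minus strand inside Grk4. miR-466k lies at chr3:85467396-85467418 on the plus strand inside Gm31419, and miR-466j at chr10:60960802-60960824 on the plus strand with no host gene. All 5 are therefore family members outside Sfmbt2. None of the 5 shares its seed with another mature sequence of the table. The table held only these 5 of the 41 members under the array's name. The seeds of the other members were therefore not compared, and some of them may share these seeds. Each holds UGUGUG or CACACA, read on the strand of the miRNA with overlapping matches allowed. These motifs occur in 11 of the 199 array miRNAs that could be matched by exact name (5.53%), and in 40 of all 1738 mature sequences of the table (2.3%). The longest run of strictly alternating U and G or C and A was 12 bases in miR-467f, 9 in miR-467g, 9 in miR-466k, 8 in miR-669n and 7 in miR-466j. miR-467f and miR-467g share a stretch of 11 bases, and miR-669n and miR-466k one of 8.

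The arrays measured each member by 1 to 4 probes and 20 spots. Signals below are background-subtracted intensities averaged over spots and then over the probes of a miRNA, with the SE over spots, which is technical only. Detection of a probe required that over 50% of its spots stood well above background, and detection of a miRNA required 1 detected probe or more. Probes differ in how brightly they report, so a signal compares the regions for 1 miRNA and does not rank miRNAs by amount. For ratios, signals were divided by the array's 75th percentile over probes detected in both regions, which was 786 for the gland and 719 for the flank. Both arrays were similar in range: negative control spots averaged 3.81 ± 5.28 (SD, n = 432 spots) in the gland and 2.23 ± 5.07 (SD, n = 428 spots) in the flank. The labelled tissues were checked on miRNAs known from other cell types. All 4 striated muscle miRNAs (miR-1, miR-133a, miR-133b and miR-206) were lower in the gland, with log2 ratios from -1.43 to -1.12. The 7 epithelial miRNAs of the miR-200 family, miR-203 and miR-205 were detected in both regions, with log2 ratios from -0.31 to 0.51 and a median of 0.34. The ratio was under 1 for 2 of them, miR-203 (-0.31) and miR-205 (-0.02). Of 5 blood cell miRNAs 4 were detected, with a median of 0.05.

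In each region 11 of the 41 members were detected, and they were the same 11 miRNAs. The share of members detected was 26.8%, while among all 696 miRNAs 42.5% were detected in the gland, 43.1% in the flank and 40.8% in both. No member was detected in only 1 region. By spots, 178 of 794 member spots (22.4%) were well above background in the gland and 177 of 795 (22.3%) in the flank, whereas outside the families the share was 39.0% in both. None of the 11 detected members reached a ratio of 1.5-fold in either direction with these signals. With the software's total signal per miRNA, scaled in the same way, 1 of them did, miR-467f, which was higher in the gland (log2 ratio 0.83). In such bulk tissue, fewer cells that hold a miRNA and less of it per cell cannot be told apart. Among all 284 miRNAs detected in both regions, 2.11% were higher and 9.15% lower by at least 1.5-fold in the gland, or 11.3% in all. With the 28 miRNAs that were detected in 1 region only, taken at a lower bound, the shares were 3.21% higher and 9.94% lower of 312.

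**Figure D1:**
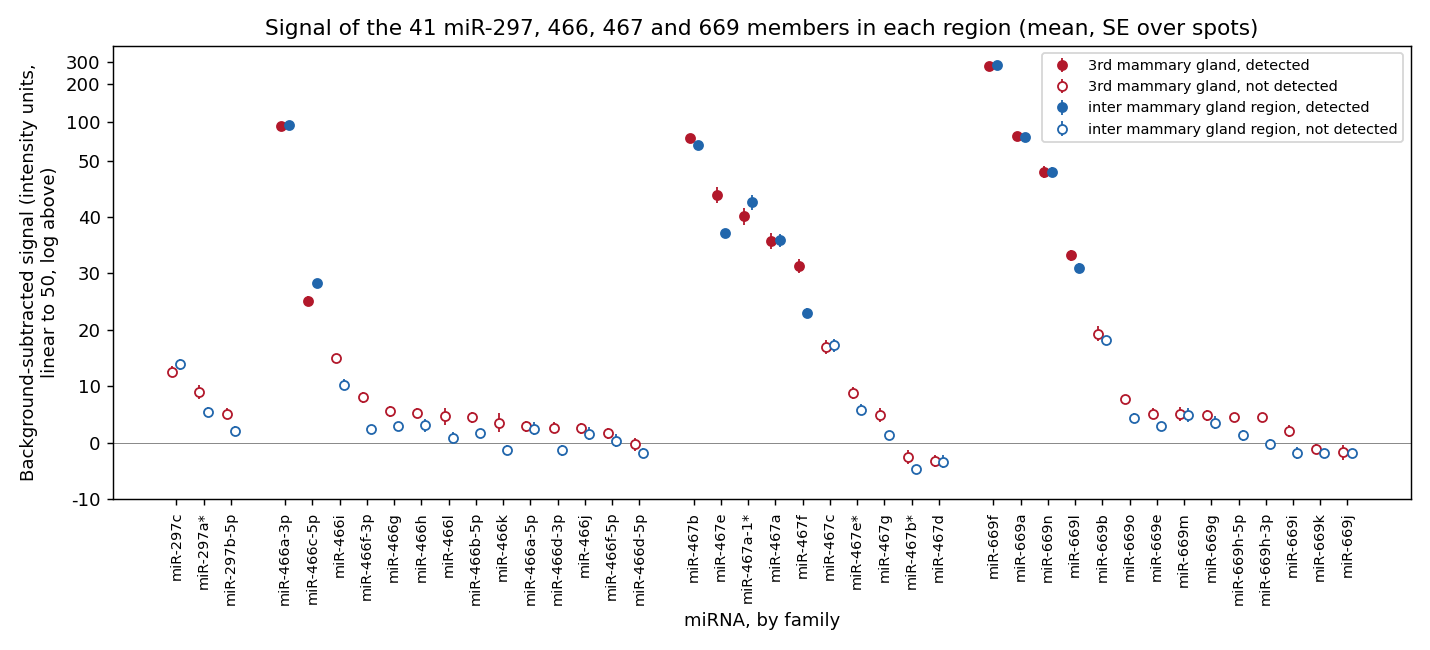
Mean background-subtracted signal of all 41 members by family, with the SE over spots, for the 3rd mammary gland (red) and the inter mammary gland region (blue), filled where detected. The axis is linear to 50 and logarithmic above. The 11 detected members lie close together in both regions, from about 23.1 to 282, and the open symbols of the other 30 lie between -4.69 and 19.3.

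Detection differed by family. In the miR-467 family 5 of 10 members were detected (50%), in the miR-669 family 4 of 14 (28.6%), in the miR-466 family 2 of 14 (14.3%) and in the miR-297 family 0 of 3. The miR-467 family was thus the only one of the 4 whose share was above the 40.8% of all miRNAs. The share of detected members also moved with the number of probes that the array gave a miRNA, and its part in the family differences was not tested. Of the 15 members with 4 probes 0 were detected, against 17.5% of all miRNAs with 4 probes, and of the 24 members with 2 probes 10 were detected (41.7%), against 56.2% of all miRNAs with 2 probes. The other 2 members had 1 probe (miR-669l, detected) and 3 probes (miR-669g, not detected).

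miR-669f had the highest signal of the members, 277 ± 6.28 in the gland and 282 ± 5.02 in the flank. After scaling it was 1.11-fold lower in the gland (log2 ratio -0.15 ± 0.04, SE over spots). The signals of miR-669a were 78.5 ± 1.97 and 76.4 ± 1.14, with a log2 ratio of -0.09 ± 0.04. Those of miR-669n, which lies in Slc30a7, were 48.0 ± 1.11 and 48.0 ± 0.898, with a log2 ratio of -0.13 ± 0.04. miR-669l, read by a single probe, gave 33.2 ± 0.973 and 31.0 ± 0.805 and a log2 ratio of -0.03 ± 0.06. The 4 detected miR-669 members therefore all had a ratio slightly below 1, and only that of miR-669l was within 1 SE of it.

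In the miR-467 family the ratios lay on both sides of 1. miR-467f, the member in Fxr2, had the highest ratio of all members, 1.24-fold higher in the gland (log2 ratio 0.31 ± 0.08, or 0.83 with the scaled total signal), from signals of 31.3 ± 1.27 and 23.1 ± 0.9004. miR-467e gave 44.0 ± 1.39 in the gland and 37.1 ± 0.795 in the flank (log2 ratio 0.11 ± 0.06). miR-467b gave 75.02 ± 1.20 and 65.9 ± 1.30 (log2 ratio 0.06 ± 0.04). These 3 members were the only detected ones of the 41 with a ratio above 1. Both strands of miR-467a were on the lower side: miR-467a gave 35.7 ± 1.39 and 35.9 ± 1.14 (log2 ratio -0.13 ± 0.07), and miR-467a-1* gave 40.1 ± 1.48 and 42.6 ± 1.27, 1.16-fold lower in the gland (log2 ratio -0.22 ± 0.07).

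Both detected members of the miR-466 family were lower in the gland after scaling. miR-466c-5p had the lowest ratio of all members, 1.23-fold lower (log2 ratio -0.30 ± 0.07), from signals of 25.2 ± 0.903 in the gland and 28.3 ± 0.777 in the flank. miR-466a-3p gave 93.2 ± 1.36 and 95.1 ± 1.55 and was 1.12-fold lower (log2 ratio -0.16 ± 0.03). Over the 11 members the log2 ratio was more than 2 SE over spots from 0 in 8, but this spread leaves out any difference between embryos or dissections.

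**Figure D2:**
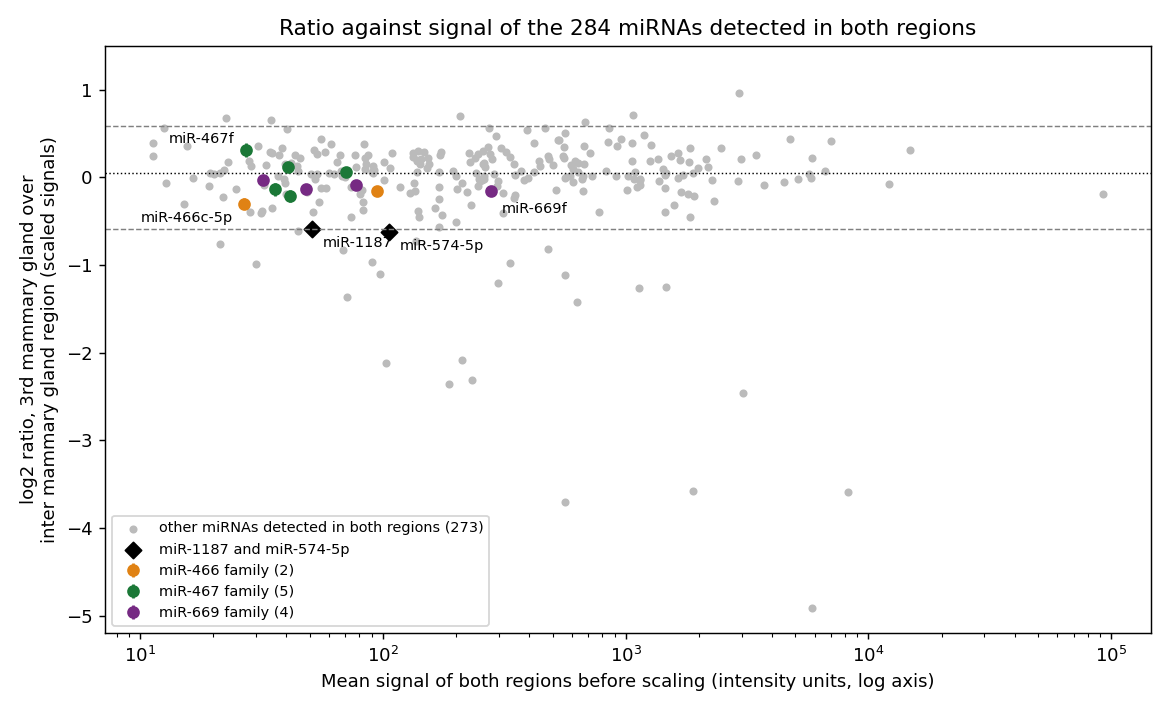
Log2 ratio of the 3rd mammary gland over the inter mammary gland region against mean signal (log axis) for the 284 miRNAs detected in both regions. Colours mark the detected members by family, with the SE over spots. Diamonds mark miR-574-5p and miR-1187, repeat-bearing miRNAs outside the families that were picked partly by their ratio. Another such miRNA, miR-342-3p (log2 ratio 0.24), is among the unmarked points. The dotted line is the median of all (0.05) and dashed lines are 1.5-fold. All 11 members lie between the dashed lines, from -0.30 to 0.31, and 8 of them lie below the dotted line.

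The median log2 ratio of the 11 members was -0.13, and that of all 284 miRNAs detected in both regions was 0.05, so that the members lay 0.18 below all miRNAs on the log2 scale (difference -0.18). Of the 11 members 8 lay below the median of all. Whether a single member was above or below a ratio of 1 depended on the scaling: 8 members were below 1 with the scaling used, 5 with no scaling, 3 when all probes entered the 75th percentile and 3 after quantile normalization. The median of all miRNAs moved with it, to 0.18 with no scaling and to 0.21 when all probes entered the percentile. Scaling by a constant cannot move the difference between the members and all miRNAs. It was therefore -0.18 also with no scaling and when all probes entered the percentile. Under the other alternatives tried the difference stayed below 0, between -0.18 and -0.07. Relative to the median of all, the median of the 2 detected miR-466 members was -0.28, that of the 5 miR-467 members 0.0095 and that of the 4 miR-669 members -0.16. Within the miR-467 family the log2 ratios ran from -0.22 to 0.31, and its median moved to -0.087 when the scanner software's calls decided detection.

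The spread of the members' ratios was set beside that of other miRNAs, as a description with no test. The SD of the log2 ratio was 0.17 over the 11 members and 0.66 over all 284 miRNAs. Among the 131 other miRNAs whose mean signal lay within the members' range of 26.7 to 280, the SD was 0.51, with quartiles at -0.17 and 0.22. Of these 131 miRNAs 13 were at least 1.5-fold lower and 2 at least 1.5-fold higher, while 94 of them (71.8%) lay within the range of the members.

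By strand suffix, 1 of 7 members named -5p, 1 of 4 named -3p, 1 of 4 with a star and 8 of 26 without a suffix (30.8%) were detected. Over all miRNAs of the array 39.7% of those named -5p were detected in both regions, 39.7% of those named -3p, 28.8% of those with a star and 44.4% of those without a suffix. Apart from miR-466c-5p, miR-669h-5p and miR-467a-1*, with 2 probes each, the -5p and star members all had 4 probes. Of the 15 members with 4 probes 0 were detected, and the part of probe number in the shares by suffix was not tested. Relative to the median of all, the log2 ratio was -0.35 for the single detected -5p member, -0.21 for the single -3p member and -0.26 for the single star member. The 8 detected members without a suffix had a median of -0.11. Each of the 3 values by suffix rests on 1 miRNA.

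For 7 hairpins both strands were on the array. In 3 of them 1 strand was detected, in 1 both were and in 3 neither was. miR-466a-3p was detected at 93.2 and 95.1, while miR-466a-5p read 2.90 in the gland and 2.47 in the flank, with none of its spots well above background. miR-467b was detected, while miR-467b* read -2.49 and -4.69. miR-467e was detected, while miR-467e* read 8.81 and 5.82. For miR-467a the star strand of the first gene copy was detected as well. For miR-466d, miR-466f and miR-669h neither strand was detected in either region. Probe number went with detection in these pairs. The undetected strands of miR-466a, miR-467b and miR-467e had 4 probes each and their detected partners 2, while both strands of miR-467a had 2. Both strands of miR-466d and of miR-466f had 4 probes, and those of miR-669h had 2. Of the 15 members with 4 probes 0 were detected, and the part of probe number in the strand differences was not tested.

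The 11 detected members were read by 21 probes, of which 17 were detected in both regions, 4 in neither and 0 in 1 region only. The log2 ratios of the 17 detected probes ran from -0.23 to 0.19 with a median of -0.12, and 12 of them were under 0. In the 6 members with 2 detected probes, the probes differed by at most 0.17, in miR-669f, whose brighter probe read 340.6 ± 37.2 and 362 ± 29.3 (SD over 10 spots or fewer) and whose dimmer probe read 214 ± 14.0 and 202 ± 7.55. The highest and the lowest ratio both came from miRNAs with 1 probe detected and 1 not. The detected probe of miR-467f read 43.0 ± 5.31 in the gland and 34.5 ± 3.05 in the flank, a log2 ratio of 0.19 ± 0.07, and its other probe, not detected, read 19.6 ± 6.05 and 11.7 ± 4.81. The detected probe of miR-466c-5p read 30.7 ± 3.02 and 31.3 ± 4.49, a log2 ratio of -0.16 ± 0.08, and its other probe, not detected, read 19.7 ± 4.61 and 25.3 ± 1.997. With detected probes alone, miR-467f was thus still the highest member at 0.19, and miR-467a-1* was the lowest at -0.23.

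**Figure D3:**
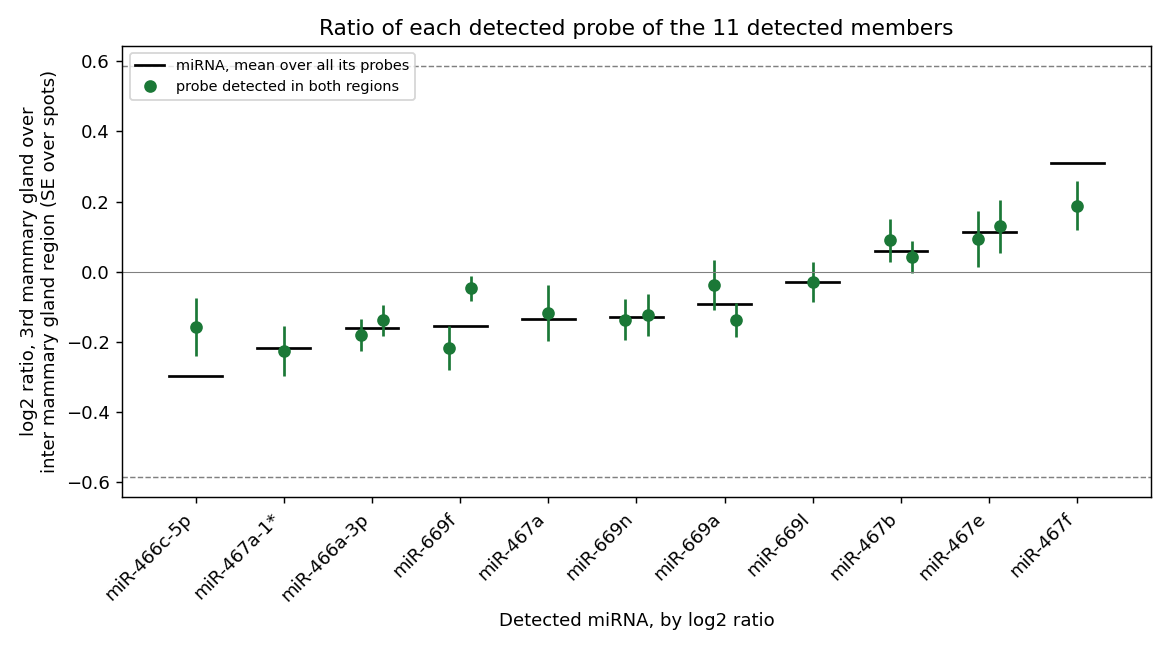
Log2 ratio of each detected probe of the 11 detected members (points, with the SE over spots) and of the miRNA averaged over all its probes (bars), in order of the miRNA's ratio, with dashed lines at 1.5-fold. The points lie between -0.23 and 0.19, and for miR-466c-5p and miR-467f the bar lies farther from 0 than the detected probe.

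The 30 members that were not detected read from -3.23 to 19.3 in the gland, with a median of 4.78, and from -4.69 to 18.3 in the flank, with a median of 1.85. The highest negative control spot was 17.3 in the gland and 19.2 in the flank, and the lowest signal of any spot called well above background was 28.9 and 27.9. These signals do not show whether the miRNAs were absent, only that they were not detectable on these arrays. Before scaling 28 of the 30 (93.3%) were brighter in the gland, by a median of 2.37 units, and so were 298 of the 384 miRNAs that were detected in neither region (77.6%), by a median of 1.42. The mean of the negative control spots was higher there as well, as given above, and its part in this difference was not tested.

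The undetected members with the highest signals averaged over probes were miR-669b and miR-467c. miR-669b read 19.3 in the gland and 18.3 in the flank, and 9 of 17 and 10 of 20 of its spots were brighter than every negative control spot of their array. Its brighter probe read 24.8 ± 5.70 and 25.3 ± 3.34 (SD over 8 and 10 spots), with 1 spot well above background in each region. miR-467c read 16.9 and 17.3, and its brighter probe gave 23.6 ± 5.40 and 23.6 ± 5.87, with 2 of 8 and 3 of 9 spots well above background. miR-466i followed at 14.9 and 10.3, with 8 of 20 of its spots above the negative controls in the gland and 1 of 19 in the flank. In the miR-297 family, miR-297c read 12.6 and 13.9, miR-297a* 8.97 and 5.43, and miR-297b-5p 5.15 and 2.06. The average of miR-297a* covers 4 probes, of which the brightest read 26.9 ± 4.72 in the gland and 23.7 ± 5.12 in the flank (SD over 5 spots), with 2 of 5 spots and 0 of 5 spots well above background. The scanner software has its own call of detection, which called 48.1% of all miRNAs detected in the gland and 48.0% in the flank. By this call 16 members were detected in the gland and 14 in the flank. The additions were miR-297a*, miR-467c and miR-669b in both regions, and miR-466f-3p and miR-466i in the gland only.

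In the RefSeq annotation (GRCm38.p6), 72 miRNA genes lie inside Sfmbt2, 71 of them named after these families, and 10 further genes of the families lie elsewhere. Of the 72 genes 62 could be tied to a member on the array by symbol or synonym, and 30 of these to a detected member. Both counts include Gm25285, tied to miR-466c by a synonym, and Mir466, taken as the gene of miR-466a although its symbol has no letter. The detected names span the cluster from the gene in place 3, Mir669f, to the gene in place 59, Mir669a-2, counted along the annotation. Several mature names are shared by many copies, 12 for miR-669a, 10 for miR-467a and 3 for miR-466c, so the array gives 1 value for all copies of a name and cannot tell which of them was expressed. Copy number did not go with detection in every case, since miR-466b-5p, with 8 copies, read 4.48 and 1.65 and was not detected, while miR-669f, with 1 copy, was detected. Only the -5p strand of miR-466b was among the members, read by 4 probes, and 0 of the 15 members with 4 probes were detected. The other strand of these copies was not measured under that name. Of the 32 members with genes inside Sfmbt2 only, 9 were detected (28.1%), with a median log2 ratio of -0.13. Of the 6 with genes outside only, 2 were detected, miR-467f and miR-669n. The 3 with genes in both places, miR-297a*, miR-466f-3p and miR-466f-5p, were not detected.

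**Figure D4:**
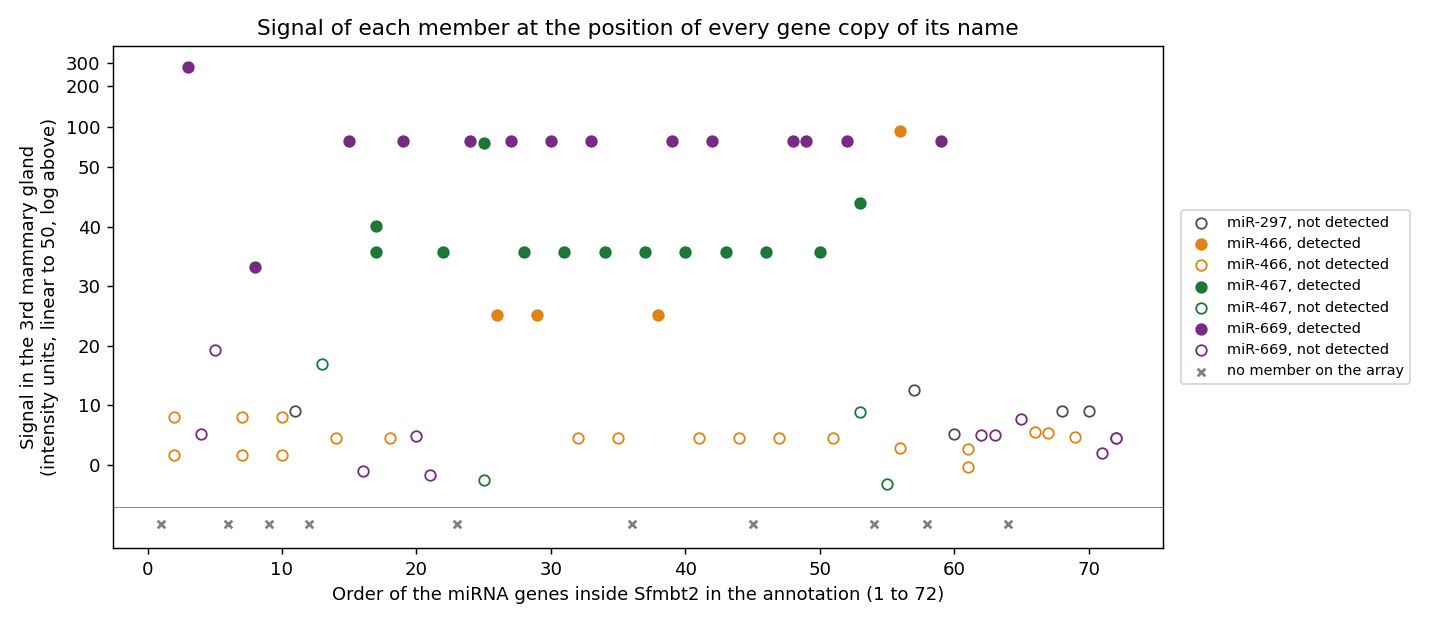
Signal in the 3rd mammary gland of each member at the place of every gene of its name among the 72 miRNA genes inside Sfmbt2, by family, filled where detected, with crosses under the line for genes that no member on the array names. The axis is linear to 50 and logarithmic above. A row of equal points is 1 measurement drawn at each copy, as for the 12 copies of miR-669a at 78.5, and signals of different miRNAs do not compare as amounts.

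Outside the families 6 matched miRNAs of the array hold UGUGUG or CACACA, and 2 of them have the longest UG runs of the matched set. They resemble the members in sequence and were picked partly because their ratios differ from those of the members. That difference was thus fixed by the choice and says nothing about repeat-bearing miRNAs in general.
miR-574-5p: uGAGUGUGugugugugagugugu
miR-1187: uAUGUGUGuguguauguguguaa

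miR-574-5p (GRCm38.p6, chr5:64970328-64970350, plus strand, inside Fam114a1 and Tlr6) has an alternating run of 13 bases. It shares 9 bases in a row with miR-466k and 8 with miR-669n. Its signals were 88.2 in the gland and 124 in the flank, 1.54-fold lower (log2 ratio -0.62 ± 0.03, SE over spots). miR-1187 (chr5:82798964-82798986, minus strand) has a run of 11 bases and shares 10 with miR-466k and 10 with miR-466j. It gave 43.0 and 59.2, 1.51-fold lower in the gland (log2 ratio -0.59 ± 0.05). Both were lower than every detected member, whose lowest log2 ratio was -0.30, but they were picked partly for this. Of the other 4, miR-342-3p was detected, at 538.7 and 417. Its log2 ratio of 0.24 lay within the range of the members, -0.30 to 0.31. miR-291a-3p, miR-574-3p and miR-713 were not detected.

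Both clusters of a comparable kind gave other shares on the same arrays. Of the 74 miRNAs of the imprinted Dlk1-Dio3 cluster, 50 were detected in both regions (67.6%), with a median log2 ratio of 0.02. Of the 14 miRNAs of the miR-290 cluster, which is known for its expression in embryonic stem cells like the Sfmbt2 families, 0 were detected in both regions and 2, miR-290-5p and miR-292-5p, in the flank only. The 26.8% of the Sfmbt2 families lay between these shares.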

How the data were processed

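Per the labels and the methods, 100 ng of total RNA of each region of E13.5 ICR embryos was hybridized to 1 Agilent 1-colour array. Spot quantification by the authors used Feature Extraction 10.7.3.1, and they deposited background-subtracted intensity values per spot on a linear scale, not normalized between arrays. They also deposited the software's total intensity per miRNA, with 0.1 standing in where it made no detection call, and the same totals (696 of 696 within 0.001) as a table. The methods name GeneSpring GX for later steps without settings.

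From the spot intensities, outlier spots were left out (26 and 25 of 820 member spots), spots were averaged per probe, arrays were scaled by their 75th percentile over probes detected in both regions, and probes were averaged per miRNA. Detection of a probe required over 50% of its spots well above background. The fold threshold was 1.5. The steps were tested on simulated spots. All detected members, the undetected members with the highest signals, strand pairs, miRNAs outside the families with a repeat motif, and the comparison lists were named. Those undetected members, the miR-297 family, and miR-574-5p and miR-1187 as the sequences shown outside the families, were chosen after their values were seen. The members and lists were chosen with earlier results of these data known. Mature sequences were matched by exact name to RefSeq (GRCm38.p6). Since the array's grid names another assembly, the gene annotation of that build was used only for names, the order of genes and whether they lie inside Sfmbt2. Alternatives covered scaling, background correction (limma's normexp), signal column, detection rule, dim miRNAs, outliers, probes, floor and threshold. The tools were limma 3.58.1 in R 4.3.3, and numpy 2.4.6, pandas 2.3.3 and matplotlib 3.10.9 in Python 3.11.15.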

Additional observations from a re-analysis of the deposited data

How the results depend on the processing

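No paired analysis was possible because only 1 array was made from the gland and 1 from the flank. The number of detected members was 11 in each region and fell to 4 in each when miRNAs with a mean signal under 50 were left out. It was 9 in each region when all spots of a probe had to stand well above background. With the software's detection call it was 16 in the gland and 14 in the flank. No member was past 1.5-fold lower under any alternative. The number past 1.5-fold higher was 0 except with the scaled total signal, which gave 1 (miR-467f, log2 ratio 0.83), and with the software's detection call, which gave 1 (miR-297a*, 0.59). The software called miR-466f-3p and miR-466i in the gland only, and for such members the flank was set no lower than its lowest detected probe (27.1). Their gland signals, 8.03 and 14.9, lay below this floor, so neither could be counted. The median log2 ratio of the members (-0.13) was 0.0019 with no scaling, 0.031 with the 75th percentile of all probes, 0.027 after quantile normalization, -0.039 after normexp, -0.034 with the scaled total signal and -0.19 when a probe counted as detected only if all of its spots stood above background. Relative to all miRNAs, the miR-466 median (-0.28) was -0.16 with the brightest probe, -0.20 with detected probes only, -0.21 without dim miRNAs, -0.21 with all spots required and -0.081 after normexp. The miR-467 median (0.0095) was -0.087 with the software's call, and the miR-669 median (-0.16) was -0.066 after normexp. The -3p value (-0.21) was -0.15 with the brightest probe, -0.15 after quantile normalization and -0.090 after normexp. The -5p value (-0.35) was -0.17 with the brightest probe, -0.20 with detected probes only and -0.072 after normexp. The star value (-0.26) was -0.084 after normexp and 0.14 with the software's call. Normexp adds an offset, which draws ratios of dim probes towards 1. For the other settings the cause was not tested. Averaging over detected probes only was chosen after the data were examined. Among single members, 66 log2 ratios under an alternative moved by more than their SE over spots and 46 did not. Signals close to the background limit the precision of the ratios, and 1 array per region limits all of them.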
